A study of Mus musculus with 8 samples.

Results

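Cholesterol and fatty acid synthesis were followed through 30 genes listed by symbol, 21 of sterol synthesis and 9 of fatty acid synthesis (lipogenesis). All 30 were found by symbol among the 53465 genes of the deposited table, and all 30 passed the filter on low values that left 16380 genes to test. Messenger RNA was sequenced from the colon of 8 mice on the B6 background. By the protocol its cells were shaken off as epithelium in 30 mM EDTA. Of the mice, 4 were labelled Arg1 wt (wild type 1 to 4) and 4 Arg1 ko (Arg1 ko 1 to 4). The ko mice carry a conditional deletion of Arg1, the gene of arginase 1, in a cell type that the labels do not name, and the wild types are littermates that express it. Both groups were aged 7 to 12 weeks, matched for age and sex, and both received 2.5% dextran sulfate sodium (DSS), which injures the colon epithelium, in their drinking water for a week and then plain water until day 10. Animals without DSS were not analysed here. The question set by the design is which genes differ between the genotypes after this colitis.

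Cells build cholesterol from acetyl-CoA by way of mevalonate, isoprenoids, squalene and lanosterol, and build fatty acids from the same acetyl-CoA through malonyl-CoA. The transcription factors SREBP2 and SREBP1, encoded by Srebf2 and Srebf1, are released from the endoplasmic reticulum when sterols run low and switch on these enzymes, while INSIG1 holds them back. SREBP2 acts mainly on sterol genes and SREBP1 mainly on fatty acid genes. Dividing and migrating epithelium needs both lipids for new membranes.

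Values are regularised log2 values (rlog), which shrink the differences of weakly expressed genes, and differences are taken as Arg1 ko less wild type. The 9 fatty acid synthesis genes all had a positive difference, with a median of 0.34, and 17 of the 21 sterol genes had one, with a median of 0.15. Over all tested genes 51.2% of differences were positive and the median was 0.006. The fatty acid synthase gene Fasn (0.78) and the stearoyl-CoA desaturase genes Scd2 (0.64) and Scd1 (0.53) had the largest differences of the 30. None of the 30 had a limma adjusted p under 0.05, and neither did any of the 16380 genes (0%). At an unadjusted p under 0.05 there were 6 fatty acid genes and 3 sterol genes, all higher in Arg1 ko, where 4.73% of all tested genes were higher and 4.37% lower at that level. Groups did not overlap in 4 members, Hmgcs1, Dhcr7, Acly and Scd2, all higher in Arg1 ko, against 2.36% of all tested genes higher and 1.67% lower. The members were chosen with earlier results of these data known, so these shares are a description.

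The colon label was checked with marker genes, and the library labels with Arg1. The epithelial genes Epcam and Krt8 stood at 15.45 and 16.17 in wild type, but the smooth muscle gene Acta2 (14.79) and the fat cell genes Adipoq (9.89) and Cfd (12.58) were also well detected, although by the protocol the cells were shaken off as epithelium in 30 mM EDTA. Arg1 stood at 5.59, 5.57, 5.02 and 5.58 in the wild types and 5.06, 4.87, 5.15 and 5.19 in Arg1 ko 1 to 4. The difference was -0.37 with a standard error of 0.15 (limma adjusted p = 0.522). The value of the library labelled wild type 3 fell among the ko values and goes against its label. This rests on 1 weakly expressed gene, so it does not settle the genotype of that library. What changed when that library was left out is given with the results. Without that library Arg1 differed by -0.51 (limma adjusted p = 0.0418). It had the lowest Arg1 value of the wild types, so leaving it out enlarges this difference by construction. That p is therefore no check of the labels. In wild type 1 and 2, the values of long transcripts were low and those of short ones high. Genes with transcripts over 5 kb had a median deviation from their own 8-library mean of -0.35 in wild type 1 and -0.20 in wild type 2. In the other 6 libraries it was 0.01 to 0.16. Genes under 2 kb had 0.31 and 0.17 in wild type 1 and 2, and -0.15 in the library labelled wild type 3. The longest Arg1 transcript has 1477 bases. After a correction for transcript length, Arg1 differed by -0.25 (limma adjusted p = 0.513). The sample numbers of the genotypes form separate runs, so a batch and the genotype cannot be told apart. Fewer cells of a type and less RNA per cell cannot be told apart in these samples either.

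Promoter sequences are shown for Hmgcs1 and Idi1, the sterol genes with the smallest p among those with such a sequence here. Those of Fasn and Acly, the fatty acid genes chosen in the same way, are shown too. The sequences are the 250 bases before the annotated RefSeq start. They are from RefSeq on GRCm38.p6, 5′ to 3′ on the strand of the gene, with motif letters in capitals. Letters were searched on both strands as TCACNCCAC (a sterol regulatory element, bound by SREBP), CCAAT (the NF-Y box), CACGTG (an E-box) and GGGCGG (the GC box of Sp1); none of these letter strings contains another. The windows are chr13:119690101-119690350 on the plus strand for Hmgcs1, chr13:8885356-8885605 on the plus strand for Idi1, chr11:120824548-120824797 on the minus strand for Fasn and chr11:100528001-100528250 on the minus strand for Acly.
Hmgcs1: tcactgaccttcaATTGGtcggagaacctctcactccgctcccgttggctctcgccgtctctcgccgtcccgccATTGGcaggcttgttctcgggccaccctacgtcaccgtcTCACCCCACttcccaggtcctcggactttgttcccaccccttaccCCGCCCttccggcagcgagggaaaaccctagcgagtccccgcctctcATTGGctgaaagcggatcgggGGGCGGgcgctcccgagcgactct
Idi1: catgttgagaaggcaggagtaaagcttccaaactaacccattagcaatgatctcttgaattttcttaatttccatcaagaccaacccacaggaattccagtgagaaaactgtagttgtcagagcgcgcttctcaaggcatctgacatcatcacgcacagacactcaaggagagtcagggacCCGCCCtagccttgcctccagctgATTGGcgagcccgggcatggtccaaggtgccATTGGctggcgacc
Fasn: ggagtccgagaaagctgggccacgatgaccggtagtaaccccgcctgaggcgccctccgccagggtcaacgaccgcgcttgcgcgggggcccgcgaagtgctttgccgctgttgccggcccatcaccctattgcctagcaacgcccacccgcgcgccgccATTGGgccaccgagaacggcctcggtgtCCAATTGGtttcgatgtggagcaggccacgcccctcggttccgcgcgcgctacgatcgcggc
Acly: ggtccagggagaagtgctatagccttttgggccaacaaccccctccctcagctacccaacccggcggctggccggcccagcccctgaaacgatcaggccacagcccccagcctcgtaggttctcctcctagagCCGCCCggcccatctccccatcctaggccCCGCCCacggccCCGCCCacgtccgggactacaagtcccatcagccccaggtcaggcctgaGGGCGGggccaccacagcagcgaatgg

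Hmgcs1 held the sterol element, starting 137 bases before the start, with 3 CCAAT boxes and 2 GC boxes. Idi1 held 2 CCAAT boxes and 1 GC box, all of them past the GENCODE gene start (8885501) and so inside the gene. Fasn held 3 CCAAT boxes and no GC box (a match on each strand sharing bases in CCAATTGG), and Acly 4 GC boxes and no CCAAT box. RefSeq promoters were matched for 24 of the 30 members, the others being Fdps, Fdft1, Sqle, Stard4, Scd1 and Scd2, and for genes with several annotated starts the one farthest upstream was taken. The Acaca window (chr11:84195188-84195437, plus strand) lies inside the gene as annotated in GENCODE (84129672 to 84401651). It held none of the searched motifs. The Tm7sf2 window (chr19:6067851-6068100, minus strand) also lies inside its gene (6062821 to 6068373). It held 1 CCAAT box and 2 GC boxes. Both windows are counted below, and the bases before those farther upstream gene starts were not searched. Several other windows, among them those of Idi1, Acss2, Srebf2, Insig1 and Hsd17b7, lie partly inside their genes. CCAAT was present in 15 of 17 sterol promoters and 3 of 7 fatty acid promoters, against 34.5% of all 27025 promoters and 35.6% of the 12015 promoters of tested genes. GGGCGG was present in 16 of 17 and 3 of 7, against 33.0% and 56.6%. The E-box was in 3 sterol promoters (Hsd17b7, Insig1 and Sc5d) and in no fatty acid promoter, against 6.04% of all and 8.06% of tested genes. The sterol element was in Hmgcs1 alone of the 24, against 1.03% of all and 0.932% of tested genes. A match is a description of letters, and a missing match says only that they are not in this window.

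The supply of acetyl-CoA and reducing power was the first step of the fatty acid branch. Acly (ENSMUSG00000020917, chromosome 11, 100476353 to 100528000), ATP citrate lyase, which cleaves exported citrate into cytosolic acetyl-CoA, had 11.88, 11.79, 12.10 and 11.87 in wild type 1 to 4 and 12.25, 12.20, 12.15 and 12.18 in Arg1 ko 1 to 4. Every ko library was above every wild type, with wild type 3 the nearest. The difference was 0.29 with a standard error of 0.09 (limma adjusted p = 0.522). The exact two-sided permutation p was 0.0286 before any adjustment, the smallest that 70 assignments allow. Groups that do not overlap always give this value. Acss2, which makes acetyl-CoA from acetate, differed by 0.09 (95% interval -0.09 to 0.26), and Me1, the malic enzyme that yields NADPH, by 0.08 (-0.20 to 0.36). Me1 shares 26.5% of its 50-base words with other genes, 24.3% with Gm7049, so its value is uncertain. Of the 3 supply genes, Acly was therefore the only one with an unadjusted interval above 0.

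Chain building came next. Fasn (ENSMUSG00000025153, chromosome 11, 120805846 to 120824547), the enzyme that assembles palmitate, had 10.84, 11.03, 11.77 and 11.10 in wild type and 12.03, 11.75, 12.04 and 12.06 in Arg1 ko. The library labelled wild type 3 lay just above Arg1 ko 2, so the groups overlapped by that pair, while the other 3 wild types were lower than every ko library. The wild types averaged 11.19 ± 0.40 (SD, n = 4) against 11.97 ± 0.15 (SD, n = 4) for Arg1 ko, which is a ratio of 1.72. The difference of 0.78 had a standard error of 0.18 (limma adjusted p = 0.522, range over the alternatives 0.0265 to 0.819). Its exact permutation p was 0.0571 unadjusted, and the difference was 0.59 after a correction for transcript length. Acaca, acetyl-CoA carboxylase 1, which makes the malonyl-CoA for that assembly, differed by 0.34 (95% interval 0.04 to 0.64) and by 0.15 after the length correction. Its longest transcript shares 52.6% of its 50-base words with Gm5182, so its value is uncertain where reads could be counted to either. Elovl6, which lengthens palmitate to stearate, differed by 0.38 (0.02 to 0.75), with the library labelled wild type 3 (11.51) the highest of all 8.

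The desaturases introduce the double bond that turns stearate into oleate. Scd2 (ENSMUSG00000025203, chromosome 19, 44293674 to 44306864) had 12.35, 12.77, 12.91 and 12.32 in wild type and 13.26, 12.95, 13.33 and 13.39 in Arg1 ko. The groups did not overlap, though the library labelled wild type 3 and Arg1 ko 2 were close together. Wild type averaged 12.59 ± 0.30 (SD, n = 4), and Arg1 ko averaged 13.23 ± 0.20 (SD, n = 4). That is a ratio of 1.56, and the difference of 0.64 had a standard error of 0.16 (limma adjusted p = 0.522; exact permutation p = 0.0286 unadjusted). Scd1 (ENSMUSG00000037071, chromosome 19, 44394455 to 44407879) had 10.17, 10.47, 11.21 and 10.90 in wild type and 11.27, 11.14, 11.20 and 11.27 in Arg1 ko. The ko libraries lay close together, while the wild types spread over more than a whole log2 unit. The difference of 0.53 had a standard error of 0.19 (limma adjusted p = 0.522, exact permutation p = 0.0857 unadjusted). It shrank to 0.36 when wild type 1 was left out and to 0.16 when wild type 2 was left out as well. Scd1 and Scd2 are neighbouring paralogs, and Scd2 shares 2.68% of its 50-base words with Scd1.

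Srebf1, which encodes the regulator of this branch, had a smaller difference than most of its enzymes. It had 10.58, 10.72, 10.69 and 10.95 in wild type and 10.73, 10.83, 10.88 and 10.79 in Arg1 ko. The ko range lay inside the wild-type range, with wild type 4 the highest of the 8 libraries. The difference was 0.07 (95% interval -0.15 to 0.29; limma adjusted p = 0.767). When wild type 4 was left out it was 0.14 and the groups did not overlap, and without wild type 1 and 2 it was -0.01. The table gives 1 value per gene, so the Srebf1 transcripts that start at different promoters were not separated, and the RNA level does not show how much of the protein is cleaved and active.

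**Figure D1:**
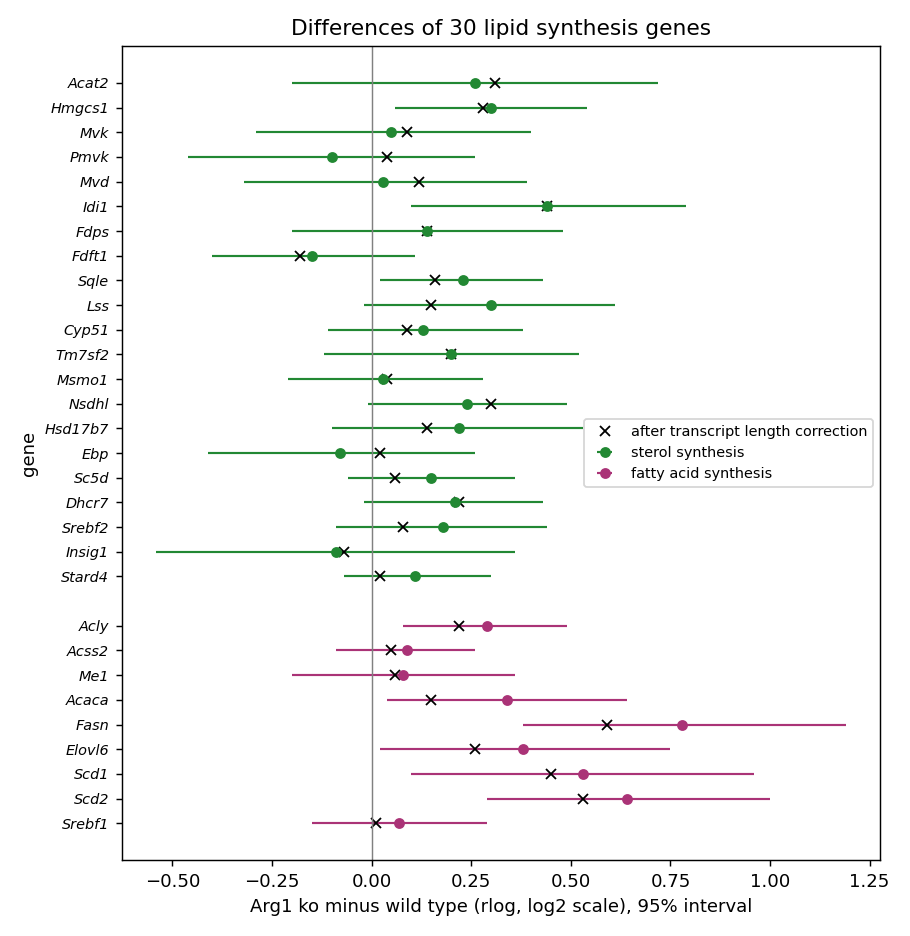
Differences of the 30 genes, Arg1 ko less wild type (rlog, log2 scale), with unadjusted 95% intervals from limma as bars (4 libraries a group), sterol genes in green, fatty acid genes in purple and crosses for the difference after correction for transcript length. Fasn (0.78), Scd2 (0.64) and Scd1 (0.53) lie farthest to the right, and Fdft1, Pmvk, Insig1 and Ebp lie left of 0.

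In the sterol branch the entry steps were followed first. Hmgcs1 (ENSMUSG00000093930, chromosome 13, 119690379 to 119708260), the cytosolic HMG-CoA synthase, had 12.35, 12.05, 12.37 and 12.12 in wild type and 12.48, 12.40, 12.65 and 12.56 in Arg1 ko. All ko libraries were above all wild types, narrowly so for Arg1 ko 2 over the library labelled wild type 3. Hmgcs1 differed by 0.30 with a standard error of 0.11 (limma adjusted p = 0.522; exact permutation p = 0.0286 unadjusted), and it was 0.28 after the length correction. Acat2, which joins acetyl-CoA units into acetoacetyl-CoA, differed by 0.26 (95% interval -0.20 to 0.72), with wild type 4 (8.22) far below wild type 1 (9.33). It was 0.057 when wild type 4 was left out, 0.43 when wild type 1 was, and 0.56 without wild type 1 and 2. Acat2 shares 45.9% of its 50-base words with Acat3, so its value is uncertain.

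With all 8 libraries, the mevalonate steps had the smallest median difference of the sterol steps, 0.03. Mvk (mevalonate kinase), Mvd (mevalonate diphosphate decarboxylase) and Pmvk (phosphomevalonate kinase) differed by 0.05, 0.03 and -0.10, and wild type 1 was the highest of the 8 libraries in all 3. These are short transcripts, of 1.19 to 2.38 kb. After the length correction the differences were 0.09, 0.12 and 0.04. Without the library labelled wild type 3, on the other hand, they were -0.02, -0.05 and -0.20. Without wild type 1 and 2 they were 0.25, 0.28 and 0.17, a median of 0.25. The entry steps then had 0.42, the isoprenoid steps 0.28, the squalene steps 0.09 and those after lanosterol 0.20.

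The isoprenoid and squalene steps were more uneven. Idi1 (ENSMUSG00000058258, chromosome 13, 8885501 to 8892451), which isomerises isopentenyl diphosphate, had 7.84, 7.89, 8.48 and 8.13 in wild type and 8.50, 8.34, 8.60 and 8.67 in Arg1 ko. Only the library labelled wild type 3 reached into the ko range. Idi1 differed by 0.44 with a standard error of 0.15 (limma adjusted p = 0.522, exact permutation p = 0.0571 unadjusted). This was the largest difference of the sterol genes with all 8 libraries. It was 0.44 after the length correction and 0.22 without wild type 1 and 2, where several sterol genes had larger ones, led by Acat2 (0.56) and Fdps (0.33). Idi1 shares 21.3% of its words with Gm13502, so its value is uncertain too. Sqle (ENSMUSG00000022351, chromosome 15, 59315077 to 59331192), squalene epoxidase, had 11.13, 11.07, 11.24 and 10.98 in wild type and 11.31, 11.22, 11.38 and 11.41 in Arg1 ko. Here too the library labelled wild type 3 overlapped with Arg1 ko 2 alone. The difference was 0.23 with a standard error of 0.09 (limma adjusted p = 0.522, exact permutation p = 0.0571 unadjusted). Lss, which closes squalene epoxide to lanosterol, differed by 0.30 (-0.02 to 0.61), and by 0.15 after the length correction. Fdps, farnesyl diphosphate synthase, differed by 0.14 (-0.20 to 0.48), and by 0.06 to 0.25 with 1 library left out. Fdft1, squalene synthase, was the sterol enzyme with the most negative difference, -0.15 (-0.40 to 0.11), and stayed negative when any one library was left out (-0.23 to -0.09). Fdps shares 11.7% of its words with Gm43738 and Fdft1 10.9% with Gm6781, so both values carry the same uncertainty.

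Of the 8 enzymes after lanosterol, 7 had a positive difference and none passed the test. Dhcr7 (ENSMUSG00000058454, chromosome 7, 143823145 to 143848410), the reductase of the last step to cholesterol, had 10.74, 10.77, 10.81 and 10.45 in wild type and 10.84, 10.84, 10.94 and 10.99 in Arg1 ko. The groups did not overlap, yet wild type 1 to 3 were close to the ko values and wild type 4 was low. The difference was 0.21 with a standard error of 0.10 (limma adjusted p = 0.522; exact permutation p = 0.0286 unadjusted), and 0.13 without wild type 4. Nsdhl, a dehydrogenase that helps strip methyl groups from the ring, had 9.59, 9.54, 9.81 and 9.81 in wild type and 9.91, 9.72, 10.09 and 10.00 in Arg1 ko. Arg1 ko 2 fell among the wild types, and the difference was 0.24 (-0.01 to 0.49). Hsd17b7 (0.22) and Tm7sf2 (0.20), both reductases, Sc5d (0.15), a desaturase of the ring, Cyp51 (0.13), the lanosterol demethylase, and Msmo1 (0.03), a methyl sterol oxidase, lay between Nsdhl and 0. Ebp, the isomerase of the ring's double bond, differed by -0.08 and by 0.02 after the length correction.

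Among the regulators of sterol synthesis the groups overlapped. Srebf2 (ENSMUSG00000022463, chromosome 15, 82147181 to 82205379) had 11.93, 12.12, 12.29 and 12.42 in wild type and 12.25, 12.32, 12.44 and 12.45 in Arg1 ko, a difference of 0.18 (95% interval -0.09 to 0.44). The library labelled wild type 3 and wild type 4 lay inside the ko range, and the difference was 0.01 without wild type 1 and 2. Insig1 (ENSMUSG00000045294, chromosome 5, 28071363 to 28078662), a target of SREBP that feeds back on it, had 10.60, 10.48, 10.47 and 11.33 in wild type and 10.34, 10.61, 10.98 and 10.60 in Arg1 ko. Wild type 4 stood apart at the top, and the difference of -0.09 became 0.11 without it. Stard4, a cytosolic sterol carrier, differed by 0.11 (-0.07 to 0.30).

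**Figure D2:**
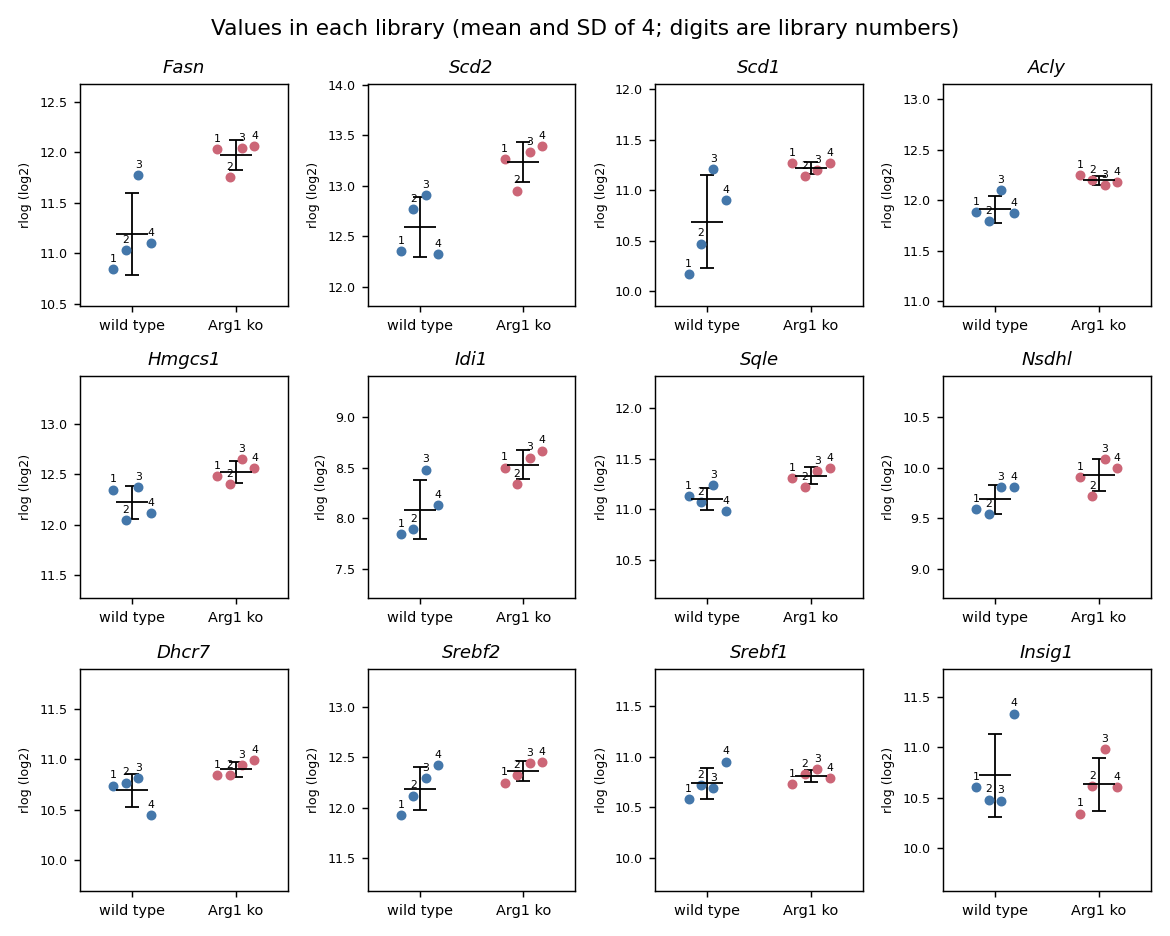
Rlog values (log2 scale) of 12 genes in each of the 8 libraries, with black bars for the mean and SD of 4 and every panel spanning the same range of log2 units. The library labelled wild type 3 lies nearest to the ko points in Fasn, Scd1, Scd2, Acly, Idi1, Sqle and Hmgcs1, and Insig1 is highest in wild type 4 (11.33).

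By library, the branches had different profiles within the wild type. The mean deviation of the 9 fatty acid genes from their own 8-library means was -0.34, -0.22, 0.07 and -0.22 in wild type 1 to 4 and 0.22, 0.05, 0.19 and 0.25 in Arg1 ko 1 to 4. That of the 21 sterol genes was 0.04, -0.10, -0.10 and -0.11 and then -0.02, -0.02, 0.20 and 0.11. In these values the library labelled wild type 3 stood with the ko libraries in the fatty acid genes and with the low wild types in the sterol genes. Wild type 1 did the reverse. After the length correction the fatty acid genes stood at -0.12, -0.10, -0.04 and -0.26 and then 0.14, 0.02, 0.17 and 0.19. The library labelled wild type 3 was then below every ko library, and wild type 4 was the lowest. The sterol genes then ranged from -0.11 to 0.04 in wild type and from -0.03 to 0.19 in Arg1 ko. Arg1 ko 3 and 4 were the highest in the sterol genes, while Arg1 ko 1 and 2 were at the level between the wild types. The spread was larger in wild type in 20 of 21 sterol genes and in 8 of 9 fatty acid genes, as it was in 90.9% of all tested genes.

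Wild type 1 was the highest of the 8 libraries in 8 members with a median longest transcript of 2.31 kb, all in the sterol branch, and the lowest in 8 others with a median of 4.95 kb, among them Fasn, Scd1 and Lss. The median longest transcript was 3.03 kb in the sterol branch and 4.83 kb in the fatty acid branch. After each library was corrected for transcript length, a step chosen after seeing the data, the median difference was 0.22 in the fatty acid branch and 0.12 in the sterol branch. All 9 and 19 of 21 differences were then positive, against 48.5% of all tested genes, and 4 and 4 members had an unadjusted p under 0.05 (4.88% of all tested genes were higher at that level). Without wild type 1 and 2, also chosen after seeing the data, the medians were 0.21 and 0.22, so the gap between the branches, -0.19 as sterol minus fatty acid with all libraries, was 0.01. Groups then did not overlap in 12 members, against 11.5% of all tested genes as higher, where only 2 wild types were left to overlap.

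**Figure D3:**
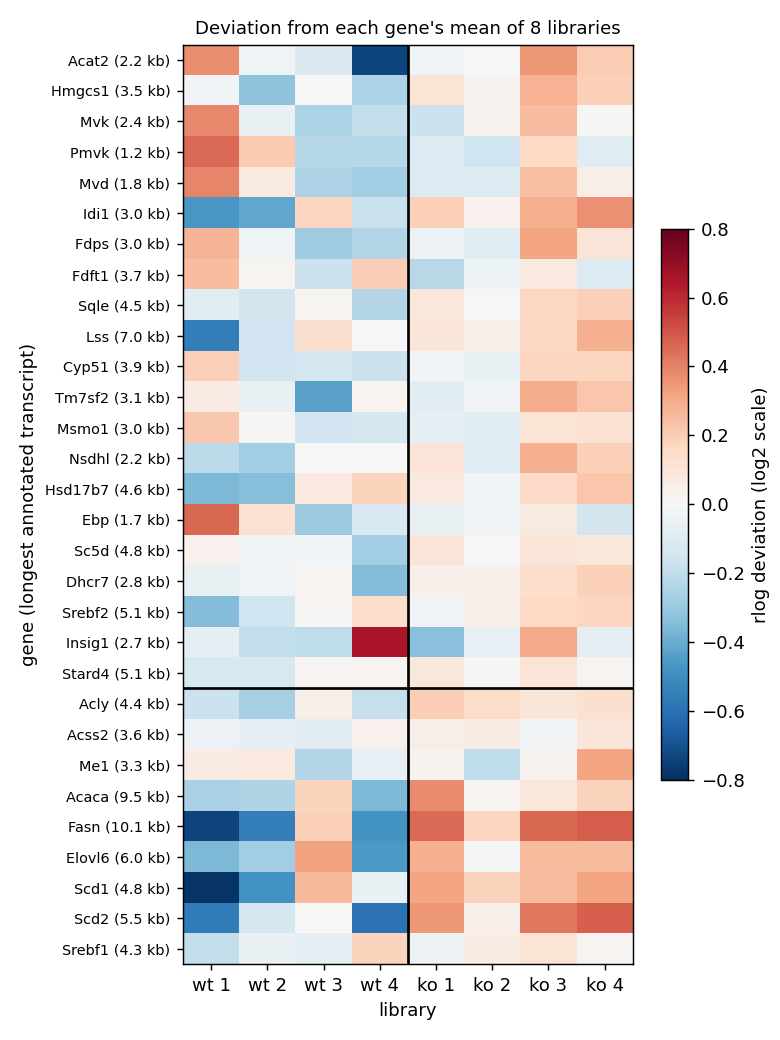
Deviation of each of the 30 genes from its own mean of 8 libraries (rlog, log2 scale, red above and blue below), with sterol genes above the horizontal line, fatty acid genes below it, and the length of the longest annotated transcript beside each name. Wild type 1 is red in short sterol transcripts such as Pmvk and Ebp and blue in Fasn, Scd1 and Lss.

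The count of calls rested on the library labelled wild type 3. When it was left out, 7 members passed (limma, adjusted p under 0.05), where 6.14% of all tested genes passed, 2.85% as higher and 3.28% as lower. They were Fasn (0.98, adjusted p = 0.0265), Elovl6 (0.56, 0.0309), Scd2 (0.75, 0.0344), Idi1 (0.58, 0.0373), Acly (0.35, 0.0376), Scd1 (0.71, 0.0406) and Acaca (0.46, 0.0439). All 7 were higher in Arg1 ko, and 6 of them belong to the fatty acid branch. In each of these 7 the library left out had the highest wild-type value, so leaving it out enlarges the difference by construction. Of the other members described by library, Hmgcs1 then differed by 0.35, Nsdhl by 0.28, Sqle by 0.27, Dhcr7 by 0.25, Srebf2 by 0.21, Srebf1 by 0.05 and Insig1 by -0.17, and none of these passed. The medians were then 0.46 in the fatty acid branch and 0.14 in the sterol branch, with 14 of 21 sterol genes positive, as were 51.5% of all tested genes.

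Other genes of the pathways were counted in the same way. Of 20 further sterol genes, 11 had a positive and 9 a negative difference, with a median of 0.05, and of 24 further fatty acid and glyceride genes 13 and 11, with a median of 0.02. None of either list passed the test over all genes with all 8 libraries. After the length correction 17 of the 24 were positive, with a median of 0.06, and without wild type 1 and 2 it was 18 of the 24, with a median of 0.12. Of the 20 sterol genes 9 were positive in both of these fits. When the library labelled wild type 3 was left out, 1 gene of each list passed as higher, as did 2.85% of all tested genes. They were Nfya by 0.47 (limma adjusted p = 0.0324) and Fads2 by 0.55 (0.0474). With all libraries, the first list's smallest p belonged to Nfya (0.36), the DNA-binding subunit of the NF-Y factor that binds CCAAT, then Aacs (0.30), which turns acetoacetate into acetoacetyl-CoA, and Soat2 (-0.25), which esterifies cholesterol. The second's were Fads2 (0.44), a desaturase of polyunsaturated fatty acids, Mlx (-0.17), the partner of a glucose-sensing factor, and Elovl5 (0.17), an elongase. Among 9 genes of oxysterols and their receptor LXR, 4 were positive and 5 negative, with Cyp27a1 (-0.44), which hydroxylates cholesterol, Mylip (-0.34), an LXR target, and Lpcat3 (0.16), another, having the smallest p. Of 20 fatty acid oxidation genes 5 were positive and 15 negative, with a median of -0.14, and none passed with all 8 libraries. The smallest p belonged to Acadl (-0.29), Acaa2 (-0.36) and Slc25a20 (-0.26), which act in mitochondrial oxidation. When the library labelled wild type 3 was left out, the oxidation median was -0.23. Acadl (-0.39, limma adjusted p = 0.0364) and Acaa2 (-0.53, 0.0336) then passed as lower, as did 3.28% of all tested genes. Without wild type 1 and 2 the median was -0.04, with 9 positive and 11 negative.

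Markers of other cell types moved with the branches to different degrees, and their part in the results was not tested. The mean deviation of 7 fibroblast genes was -0.24, -0.32, 0.07 and -0.24 in wild type 1 to 4 and 0.19, 0.10, 0.22 and 0.23 in Arg1 ko 1 to 4, nearly the profile of the fatty acid genes. Of these 7, 6 were higher in Arg1 ko, with Col1a1 at 0.83 and Pdgfra, a defining surface receptor, at 0.06. In 4 of the 7 the groups did not overlap, all higher in Arg1 ko, against 2.36% of all tested genes higher. The 6 proliferation genes stood at 0.09, -0.52, 0.04 and -0.41 and then 0.04, 0.05, 0.47 and 0.24, with Arg1 ko 3 and 4 highest as in the sterol genes. Of these 6, 5 were higher in Arg1 ko, and Mki67 differed by 0.73. The 8 fat cell genes, whose cells also make fatty acids, stood at 0.45, -0.41, 0.40 and -0.77 and then 0.17, -0.10, 0.05 and 0.21. Wild type 1 was high in these and lowest in Fasn and Scd1. After the length correction they stood at 0.31, -0.48, 0.46 and -0.72 in wild type 1 to 4. The 9 fatty acid genes then stood at -0.12, -0.10, -0.04 and -0.26. In both lists wild type 4 was then the lowest wild type and the library labelled wild type 3 the highest. Adipoq was well detected in every library, while Lep, the leptin gene, stood at 3.07 in wild type. Of the 8 fat cell genes, 7 were higher in Arg1 ko, by 0.79 for the lipid droplet gene Plin1 and 0.08 for Adipoq. That count rested on single libraries, with 3 of the 8 higher when wild type 4 was left out (median -0.11) and 4 of the 8 when wild type 2 was. When the library labelled wild type 3 was left out, 3 fibroblast genes, 1 proliferation gene and 1 fat cell gene passed as higher (limma, adjusted p under 0.05). These were Col1a1 (1.01), Col1a2 (0.68), Col3a1 (0.83), Mki67 (0.94) and Plin1 (1.21). Of all tested genes, 2.85% passed as higher at that setting. The 8 epithelial genes ranged from -0.20 to 0.09 in wild type and from -0.11 to 0.19 in Arg1 ko, the 7 leukocyte genes from -0.36 to 0.25 and from -0.15 to 0.21, and the 6 smooth muscle genes from -0.28 to 0.22 and from -0.07 to 0.12. The 4 enteric glia genes ranged from -0.31 to 0.74 and from -0.15 to 0.01, with wild type 1 the highest.

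**Figure D4:**
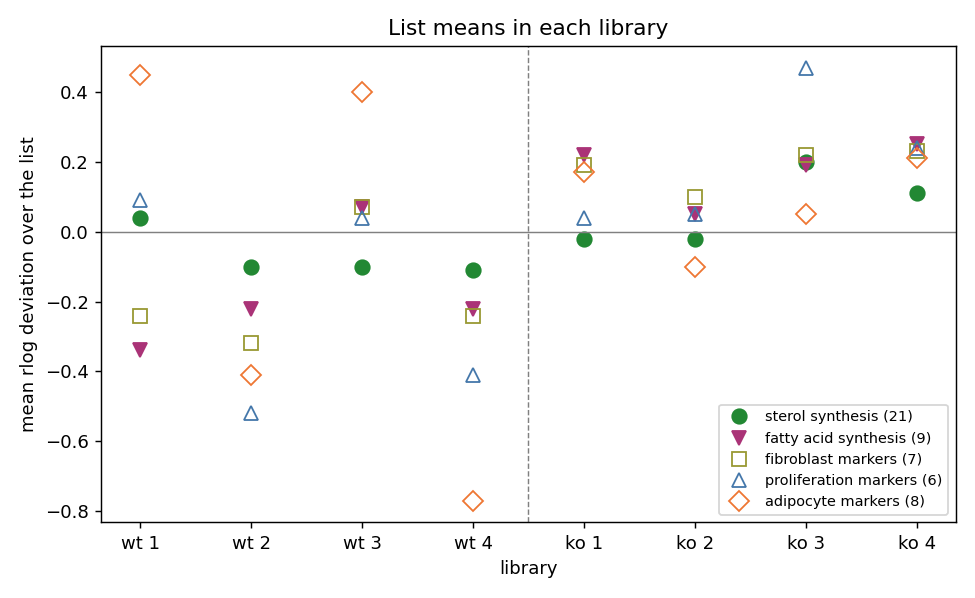
Mean rlog deviation (log2 scale) of the sterol and fatty acid genes (filled) and of fibroblast, proliferation and adipocyte markers (open) in each of the 8 libraries. Fatty acid genes range from -0.34 to 0.07 in wild type and from 0.05 to 0.25 in Arg1 ko, close to the fibroblast markers, while adipocyte markers are highest in wild type 1 (0.45).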

How the data were processed

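Messenger RNA of 8 mouse colon samples (4 Arg1 wt, 4 Arg1 ko) was sequenced from 1000 ng of RNA with a stranded kit, per the labels' protocols. The authors deposited 1 table of rlog values, on a log2 scale, for 53465 genes. BWA 0.7.14-r1136, STAR 2.5.2b, Subread 1.5.3, featureCounts, DESeq2 1.16.1 and the build GRCm38 are named in the submitters' processing notes. Counts were not used here, so the depth of each library is unknown and no counting interval is given. Rlog shrinks differences of weakly expressed genes, so ratios on this scale can understate them. No label says whether the samples are littermate pairs or batches. All table columns were assigned to samples, leaving 0 unused.

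The 16380 genes that varied and had a mean rlog of 3 or more were tested with limma 3.58.1 (R 4.3.3), with a mean-variance trend and Benjamini-Hochberg adjustment over all of them. Single values were also tested by exact two-sided permutation over 70 assignments. Among genes without that p above, the unadjusted permutation p was 0.0857 for Nsdhl and Acaca, 0.1143 for Arg1 and 0.1429 for Elovl6. It was 0.2000 for Srebf2, 0.4571 for Srebf1 and 0.7143 for Insig1. The code was tested on simulated data. The alternatives dropped the filter, raised it to a mean of 5, or used equal library medians, quantile normalisation, robust moderation, a single prior variance, an adjusted p under 0.1 and leaving out each library. A transcript-length correction (natural spline with 5 degrees of freedom) and leaving out wild type 1 and 2 were added after seeing the data. Transcript lengths and shared 50-base words came from GENCODE vM21.

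The members and lists were chosen with earlier results of these data known. Given in every library were the 4 members of each branch with the smallest p, those whose groups do not overlap, Srebf1, Srebf2, Insig1, Scd1, Scd2, Fasn and Arg1. Up to 3 genes of each other pathway list, those with the smallest p, were named.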

Additional observations from a re-analysis of the deposited data

Results flagged for a closer look

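In 64 groups of 4 libraries, 6 had 1 library farther from the others than Dixon's 95% critical value for the gap over the range. Chance flags about 1 in 20 groups. In 3 genes Arg1 ko 2 was the low library: Fasn at 11.75, with the nearest ko library at 12.03, Elovl6 at 11.17, with the nearest at 11.44, and Sc5d at 10.88, with the nearest at 10.97. Cyp51 stood at 11.78 in wild type 1, with the nearest wild type at 11.45. Insig1 stood at 11.33 in wild type 4, with the nearest at 10.60. The mean deviation of the 21 sterol genes was 0.04 in wild type 1, with the nearest wild type at -0.10.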

How the results depend on the processing

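No member was called under any alternative except leaving out the library labelled wild type 3, which gave 7 members and 1005 genes in all, so leaving out 1 library gave 0 to 7 members and 0 to 1005 genes. Members at an unadjusted p under 0.05 numbered 9, where 1490 of all 16380 tested genes reached that level. With 1 library left out they numbered 4 to 13. The 4 were without wild type 2, where 692 of all tested genes reached it. The 13 were without the library labelled wild type 3, where 4606 did. Members whose groups did not overlap numbered 4, then 1 after quantile normalisation, 12 without wild type 1 and 2, and 4 to 11 with 1 library left out (10 without Arg1 ko 2, 7 without wild type 1, 11 without the library labelled wild type 3). Fewer libraries make non-overlap easier by construction. Of all 16380 tested genes, 386 higher and 274 lower did not overlap with all 8 libraries. Without the library labelled wild type 3 it was 2045 and 2150, and without wild type 1 it was 687 and 511. Without wild type 1 and 2 it was 1876 and 1836. All genes were not counted in this way after quantile normalisation or without an Arg1 ko library. Without wild type 1 and 2 the sterol median was 0.222 and the gap between the branches 0.013. The sign of small differences turned in 9 genes. After the length correction Pmvk was 0.04 and Ebp 0.02. Without wild type 1 and 2, Pmvk and Ebp were 0.17, Hsd17b7 -0.022 and Srebf1 -0.015. With 1 library left out Mvk ranged from -0.023 to 0.19, Pmvk from -0.20 to 0.029, Mvd from -0.056 to 0.17, Msmo1 from -0.012 to 0.11, Ebp from -0.19 to 0.062, Insig1 from -0.20 to 0.11 and Me1 from -0.014 to 0.16. The causes were not tested. No paired analysis was possible because the replicate numbers only follow the order of deposit. The depth is unknown, and 4 libraries a group limit the precision.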
